A study of Mus musculus with 10 samples.

Results

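Glycolysis splits glucose into pyruvate, and 10 genes for enzymes of this pathway are described here: Hk1 and Hk2, Pfkl, Pfkm and Pfkp, Aldoa, Gapdh, Pgk1, Pkm and Ldha. They were picked by name, with earlier results of these data known, and they are 10 of the 45195 gene rows measured. All 10 passed the filter on low values that left 15712 genes for testing. RNA was taken from neurites (axons and dendrites) of mouse cortical neurons in culture, which had grown through 3 µm pores to the lower face of a membrane while the cell bodies remained above. The neurons came from E16.5 embryos, and neurites were lysed on day 8 in culture.

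The 10 libraries comprise 2 labelled knockout injured, 2 knockout naive, 3 wild-type injured and 3 wild-type naive. Neurons labelled knockout carried Cpeb1 flox/flox alleles, those labelled wild type did not, and both were on the C57BL/6 background. Cpeb1 encodes a protein that binds a short motif in the 3' untranslated region (UTR) of mRNAs and governs their polyadenylation and translation. Every culture, wild type included, received at plating an AAV2 virus that drives Cre recombinase from the CAG promoter, which is active in any infected cell and not in neurons alone. Injured neurites were cut on day 7 by swabbing the lower face of the membrane and collected 24 hours later, whereas naive neurites were left to grow, so injury and the age of the neurites cannot be told apart. Whether replicates were separate cultures is not said in the labels, and the p-values reflect no more than the variation among these 10 libraries.

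Facts of the whole series that touch these genes are as follows. If the values are FPKM, which is assumed, the estimated depth ran from 21.1 to 28.15, in units of 1e6 fragments per library. In each library 12231 to 13143 genes had a value of at least 1. Cpeb1 had 1.14 and 3.15 in the libraries labelled knockout injured and 5.97 and 0.356 in those labelled knockout naive, against 1.65, 13.8 and 22.6 in wild-type injured and 7.16, 5.96 and 5.86 in wild-type naive libraries. The library labelled knockout naive replicate 1 thus lay within the wild-type naive range, and the library labelled wild-type injured replicate 1 lay within the knockout injured range and far below the other two of its own group. Every direction between genotypes below follows the labels. Neuron markers were at high levels in every library (12 of 12 above 0, summed value 2720 to 5101). Astrocyte markers were also abundant (12 genes, summed value 2434 to 5216). Microglial markers were close to absent, with 9 genes summing to 0.293 to 18.7.

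The pathway starts with hexokinase, which phosphorylates glucose on entry, and phosphofructokinase, whose step commits the sugar to breakdown. Aldolase, glyceraldehyde-3-phosphate dehydrogenase (Gapdh), phosphoglycerate kinase (Pgk1) and pyruvate kinase (Pkm) follow, and the last 2 of these make ATP. Lactate dehydrogenase (Ldha) turns pyruvate into lactate and restores the NAD+ that Gapdh uses. Neurites depend in part on this pathway for local ATP, and several of its genes are textbook targets of the hypoxia-inducible factor HIF-1.

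Because Cpeb1 acts through the cytoplasmic polyadenylation element, the longest annotated 3' UTR of each gene was searched for TTTTAT or TTTTAAT on the transcript strand. Such a motif was present in 3 of the 10 glycolytic genes (30%), against 8261 of 13116 tested genes with an annotated 3' UTR (63.0%). The glycolytic 3' UTRs were shorter, with a median of 513.5 nt against 1210 nt. Pfkp held 5 motifs, Hk2 held 2 and Ldha held 1, and the other 7 genes held none. Near the transcript end, Ldha and Hk2 also had a polyadenylation hexamer (AATAAA or ATTAAA), but Pfkp did not. TTTTAT alone gave the same 3 of 10, against 57.7% of all. The motif nearest the transcript end lay 110 nt from it in Pfkp (chromosome 13), 119 nt in Ldha (chromosome 7) and 906 nt in Hk2 (chromosome 6), from GENCODE M21 transcripts. These sites are shown since they hold the motif that Cpeb1 is known to bind, which is in capitals:
Pfkp: tttggttggtTTTTATatggctaact
Ldha: gtacaggataTTTTATatattatatg
Hk2: cgactagcctTTTTATacgagttatt

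Levels spanned nearly 3 orders of magnitude, from Gapdh to Hk2. On the deposited scale, which is taken as FPKM and so is per transcript length, Gapdh averaged 1460 over the 10 libraries, Aldoa 432, Ldha 392, Pkm 372 and Pgk1 155. Pfkm averaged 55.2, Pfkp 50.5, Hk1 44.7, Pfkl 16.4 and Hk2 2.57. Gapdh therefore supplied 46.6% to 53.5% of the summed value of the 10 genes, and the sum was 0.302% to 0.432% of the total of a library. Neighbours in this order were often not distinct: Aldoa exceeded Ldha in 7 of 10 libraries, Ldha exceeded Pkm in 7, Pfkp exceeded Hk1 in 6 and Pfkm exceeded Pfkp in 5. By contrast, Gapdh lay above Aldoa, Pkm above Pgk1 and Pgk1 above Pfkm with no overlap of their ranges. In every library each gene of the steps from Aldoa to Ldha was thus above every hexokinase and phosphofructokinase gene.

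**Figure D1:**
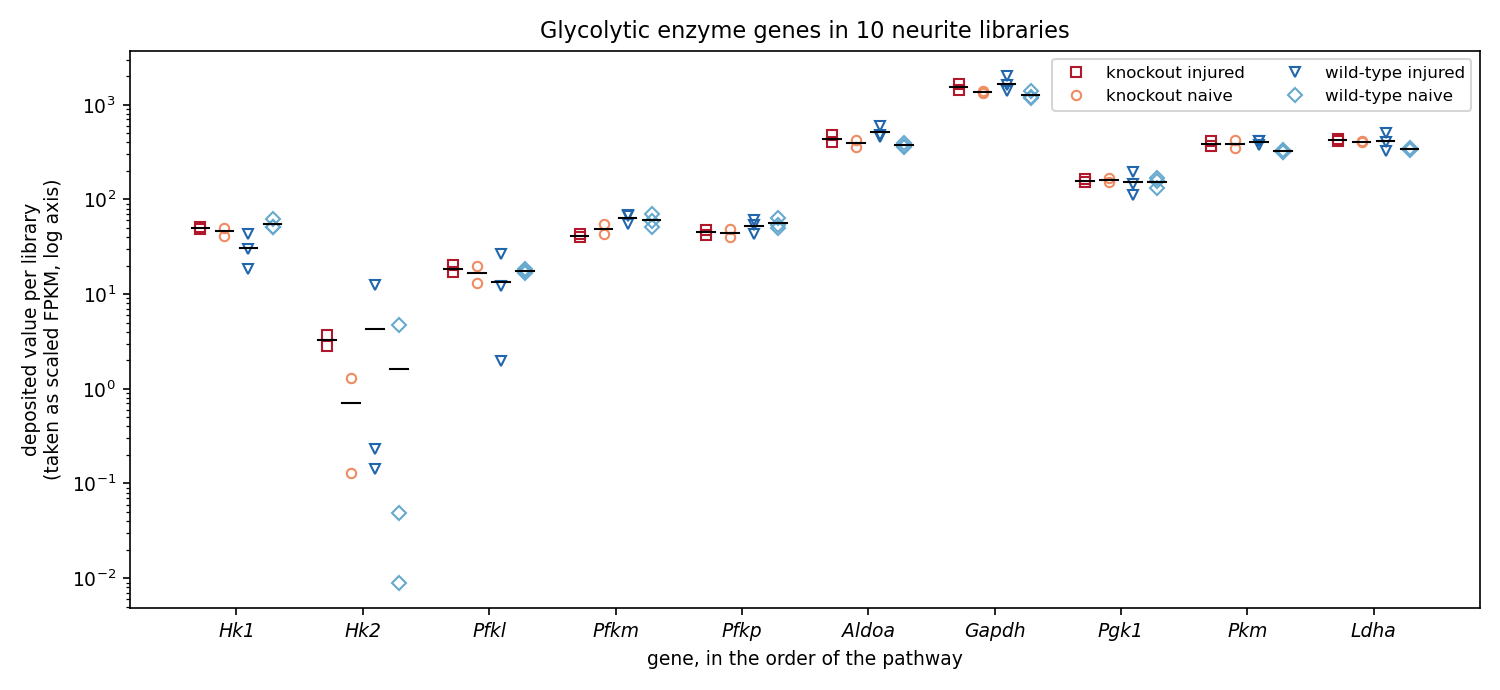
Deposited value (log axis) of each glycolytic gene in each of the 10 libraries, one open symbol per library, with a black bar at the arithmetic mean of each group. Gapdh is highest at 1183 to 2009, while Hk2 spreads from 0.009 to 12.6.

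The spread within groups also differed by gene. The residual standard deviation of the log2 value was 0.10 for Pkm, smaller than in all but 0.388% of tested genes, and 0.16 to 0.20 for Aldoa, Gapdh, Ldha, Pfkm and Pfkp, against a median of 0.58 over all tested genes. Pgk1 had 0.26 and Hk1 had 0.36. Pfkl and Hk2 were the exceptions, with 0.96 and 1.47, and they also had the lowest mean values of the 10 genes (16.4 and 2.57). The tested genes used for comparison were not matched for level, whose part in the spread was not tested. For Pkm, Aldoa and Gapdh these data can therefore bound a change closely, and for Hk2 they cannot.

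The first question was whether injury changed these transcripts in wild-type neurites. None of the 10 genes passed the adjusted threshold of 0.05 in limma, where 149 of 15712 genes (0.948%) did. At an unadjusted p under 0.05, 3 genes were higher and 1 was lower in injured neurites, 4 of 10 in all, against 13.9% of tested genes. The median log2 fold change of the 10 genes was 0.15, against 0.01 over all tested genes. In 4 of the 10 the injured and naive libraries did not overlap, against 17.8% of tested genes, and these were the same 4: Hk1, Aldoa, Gapdh and Pkm.

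Hk1 (ENSMUSG00000037012, chr10:62268855-62379908, minus strand), with coordinates here and below on mm10, is the hexokinase that dominates in brain. Its value was 43.1, 30.1 and 18.4 in wild-type injured libraries, against 50.7, 51.5 and 61.8 in wild-type naive libraries. Every injured library lay below every naive one, with replicate 3 the lowest. The log2 fold change was -0.89 ± 0.29 (SE), a fold of 0.538 with a 95% interval of 0.347 to 0.834, and the limma adjusted p was 0.203. Without wild-type injured replicate 3 the log2 fold change was -0.58 (adjusted p = 0.365), and without replicate 1 of the same group, whose Cpeb1 value went against its label, it was -1.18 (adjusted p = 0.0975).

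Aldoa (ENSMUSG00000030695, chr7:126795234-126800751, minus strand), which cleaves fructose bisphosphate, had 482, 456 and 600 in wild-type injured libraries, against 392, 371 and 361 in wild-type naive libraries. Gapdh (ENSMUSG00000057666, chr6:125161715-125166467, minus strand) had 1626, 1383 and 2009 in wild-type injured libraries, against 1213, 1183 and 1382 in wild-type naive libraries. Pkm (ENSMUSG00000032294, chr9:59656368-59679375, plus strand) had 418, 374 and 413 in wild-type injured libraries, against 333, 315 and 320 in wild-type naive libraries. For each of these genes all 3 injured libraries lay above all naive ones, though the lowest injured Gapdh value exceeded the highest naive one by about a single unit. The log2 fold change was 0.44 ± 0.16 for Aldoa, with a fold interval of 1.07 to 1.72 (limma adjusted p = 0.243). It was 0.40 ± 0.15 for Gapdh, with a fold interval of 1.04 to 1.66 (adjusted p = 0.280), and 0.32 ± 0.14 for Pkm, with a fold interval of 1.00 to 1.54 (adjusted p = 0.354). A fold of 2 or more thus lay outside the intervals of all 3 genes. Without the library labelled wild-type injured replicate 1 the log2 fold changes were 0.48 for Aldoa, 0.41 for Gapdh and 0.29 for Pkm.

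The other 6 genes gave no unadjusted p under 0.05 in this comparison. Ldha (ENSMUSG00000063229, chr7:46841475-46855627, plus strand) had 503, 326 and 404 in wild-type injured libraries, against 341, 331 and 353 in wild-type naive libraries, which overlapped because replicate 2 of the injured group was the lowest of the 6. Its log2 fold change was 0.24 ± 0.17. Pfkl (ENSMUSG00000020277, chr10:77986947-78010083, minus strand), the liver-type phosphofructokinase, had 26.5, 12.1 and 1.97 in wild-type injured libraries, against 17.8, 18.5 and 16.8 in wild-type naive libraries. The injured values enclosed the naive ones, and the log2 fold change of -0.87 ± 0.62 became 0.02 without wild-type injured replicate 3 and -1.58 without replicate 1 of that group. Pgk1 (ENSMUSG00000062070, chrX:106187100-106203699, plus strand) stood between 111 and 197 in wild-type injured and between 132 and 170 in wild-type naive libraries (log2 fold change -0.03 ± 0.21). Pfkm (ENSMUSG00000033065, chr15:98092589-98132451, plus strand), the muscle type of phosphofructokinase, had a log2 fold change of 0.06 ± 0.22. Pfkp (ENSMUSG00000021196, chr13:6579768-6648777, minus strand), the platelet type, had -0.09 ± 0.23.

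Hk2 (ENSMUSG00000000628, chr6:82725025-82774454, minus strand) is the hexokinase that is induced by growth signals and low oxygen. Its value was 12.6, 0.144 and 0.234 in wild-type injured libraries, against 4.76, 0.009 and 0.049 in wild-type naive libraries. Replicate 1 was by far the highest in both groups. The log2 fold change of 0.55 ± 0.95 had a fold interval of 0.354 to 6.05, so neither a loss nor a several-fold gain can be told from these libraries. Without wild-type injured replicate 1 the sign turned, to -0.62.

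Marker genes of cell types differed in the same libraries. The summed value of 12 neuron markers was 2720 to 3595 in wild-type injured and 4030 to 4543 in wild-type naive libraries. Their median log2 fold change was -0.36, though 4 of the 12 had positive estimates, against 50.6% of all tested genes. The summed value of 11 interneuron markers was 56.9 to 91.1 in wild-type injured and 458 to 727 in wild-type naive libraries. The 12 astrocyte markers summed to 2651 to 5216 in wild-type injured and 2434 to 3037 in wild-type naive libraries, but Fabp7, which radial glia also express, made up 78.1% to 88.0% of these sums. The other 11 summed to 562, 473 and 1141 in wild-type injured libraries, against 305, 327 and 457 in wild-type naive libraries, with no overlap. The whole list of 12 had a median log2 fold change of 0.85, with 11 positive estimates. Of the 12, 7 had an unadjusted limma p under 0.05, against 13.9% of tested genes. A set of 9 markers of radial glia and progenitors summed to 415 to 763 in wild-type injured and 144 to 254 in wild-type naive libraries. Of these 9 markers 7 had positive estimates (median 0.87). An unadjusted limma p under 0.05 was found in 1 of the 9, close to the 13.9% of all tested genes. By limma 5 of the 11 interneuron markers fell past the adjusted threshold, where 0.948% of tested genes passed in either direction. Among them were Sst (log2 fold change -3.08) and Gad1 (-2.90), while Sox9 (1.87) and Vim (1.88) rose. The nuclear transcript Malat1 also rose (1.23), but of the 8 nuclear-retained transcripts only 2 had positive estimates, with a median of -0.23. The part of these differences in the values of the glycolytic genes was not tested. In bulk samples fewer cells of a type and less RNA per cell cannot be told apart.

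In the libraries labelled knockout, injury gave no call either. None of the 10 genes passed the adjusted threshold, where 0.0573% of tested genes did, and none had an unadjusted p under 0.05, against 5.73% of tested genes. The injured and naive libraries did not overlap in 3 of the 10, against 35.5% of tested genes, since groups of 2 separate easily. These were Hk2, Gapdh and Ldha.

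Gapdh had 1441 and 1663 in knockout injured libraries, against 1381 and 1324 in knockout naive libraries (log2 fold change 0.20 ± 0.19, fold interval 0.862 to 1.52). Ldha had 417 and 439 in knockout injured libraries, against 410 and 399 in knockout naive libraries (log2 fold change 0.08 ± 0.20). Hk2 had 3.66 and 2.83 in knockout injured libraries, against 1.31 and 0.128 in knockout naive libraries (log2 fold change 1.39 ± 1.16). The injured libraries were the higher in all 3 genes, but the 95% interval of each fold included 1.

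Aldoa, at 403 and 474 in knockout injured and 427 and 355 in knockout naive libraries, overlapped between groups (log2 fold change 0.16 ± 0.19). Pkm had 367 and 411 in knockout injured and 420 and 351 in knockout naive libraries (log2 fold change 0.02 ± 0.18). Hk1 had 48.7 and 50.9 in knockout injured and 50.5 and 41.6 in knockout naive libraries (log2 fold change 0.12 ± 0.36). Both knockout injured libraries lay above all 3 wild-type injured ones in Hk1. The 11 interneuron markers summed to 70.0 to 122 in knockout injured and 505 to 868 in knockout naive libraries. Their median log2 fold change was -2.29, against -0.09 over all tested genes, and 10 of 11 estimates were below 0. Of the 11, 6 had an unadjusted limma p under 0.05, against 5.73% of tested genes. Of these Sst (-2.97) passed the adjusted threshold, where 0.0573% of tested genes did. The 11 astrocyte markers other than Fabp7 summed to 539 and 667 in knockout injured and 466 and 390 in knockout naive libraries. Their part in the values of the glycolytic genes was not tested.

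Whether the response to injury itself differed between genotypes was tested as an interaction, which subtracts the wild-type injury effect from the knockout one. None of the 10 genes passed it, and neither did any other gene (0% of 15712 tested), while 6.23% of tested genes had an unadjusted p under 0.05. Hk1 was the 1 member among them, with a log2 difference of 1.01 ± 0.46 (limma unadjusted p = 0.0475, adjusted p = 0.800). Over all tested genes the median of this difference was -0.13, and it became 0.02 under quantile normalization and 0.00 under median-ratio scaling. The injury effects in wild type and knockout are accordingly not shown to differ for any of the 10 genes, the intervals being wide (0.603 to 1.26 as a ratio of folds for Gapdh, 1.01 to 4.04 for Hk1).

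Averaging the injury effect over both genotypes uses all 10 libraries. No glycolytic gene passed the adjusted threshold, where 0.566% of tested genes did. Aldoa (log2 fold change 0.30 ± 0.12, fold interval 1.02 to 1.49) and Gapdh (0.30 ± 0.12, fold interval 1.02 to 1.47) had an unadjusted p under 0.05, against 11.4% of tested genes. Their limma adjusted p-values were 0.379 and 0.380. Pkm averaged 0.17 ± 0.11 and Ldha 0.16 ± 0.13, while Pgk1 stood at -0.02 ± 0.17.

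**Figure D2:**
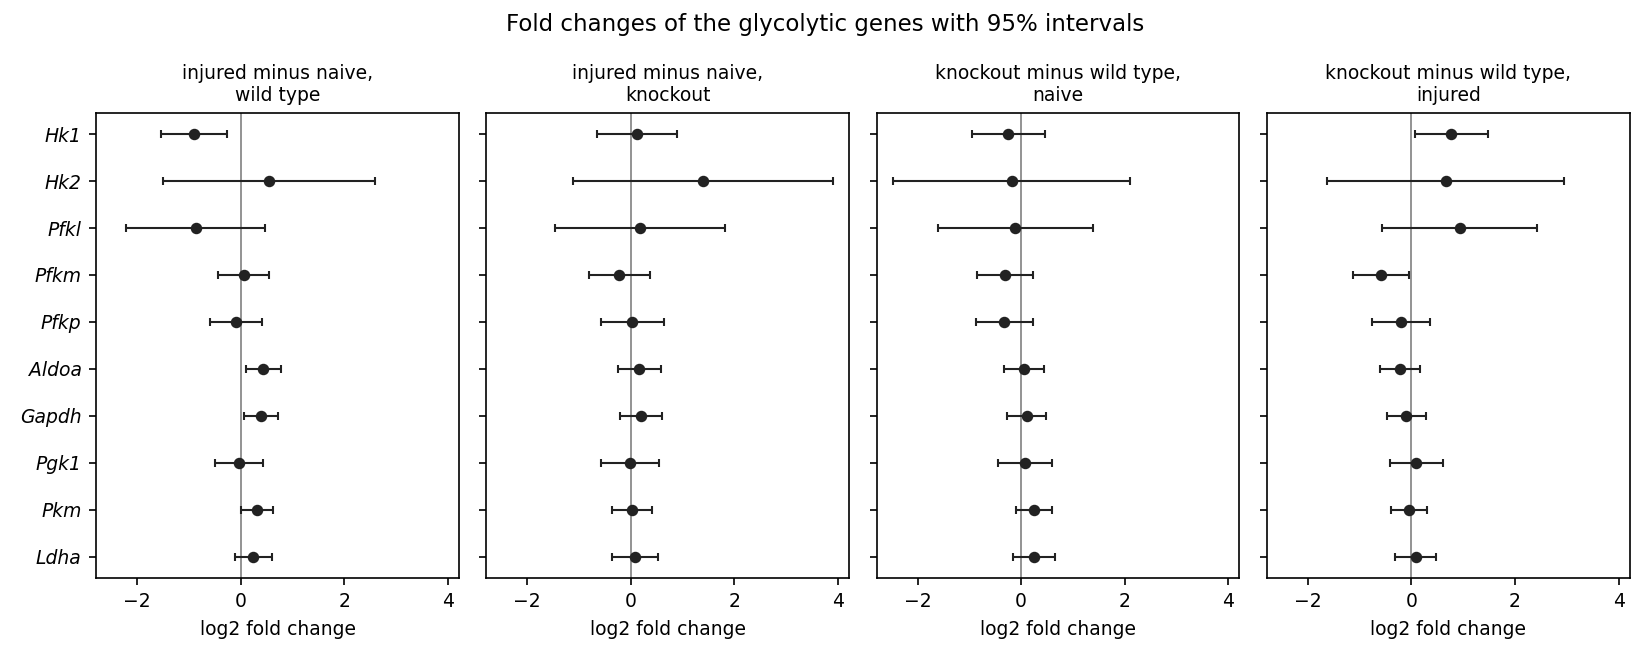
Log2 fold change of each glycolytic gene in the 4 pairwise comparisons, with limma 95% intervals. Points for Aldoa, Gapdh and Pkm lie right of 0 and Hk1 left of 0 for injury in wild type, and the intervals of Hk2 and Pfkl are the widest in every panel.

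The second question was whether these transcripts differed between neurites labelled knockout and wild type. In naive neurites none of the 10 genes passed the adjusted threshold, where 0.146% of tested genes did, and none had an unadjusted p under 0.05, against 3.76%. Groups did not overlap in 4 of the 10, against 22.6% of tested genes. Pkm and Ldha were higher in both knockout naive libraries, and Hk1 and Pfkp were lower, with log2 fold changes of 0.25 ± 0.16, 0.25 ± 0.19, -0.24 ± 0.33 and -0.32 ± 0.26. The library labelled knockout naive replicate 1, whose Cpeb1 value went against its label, is 1 of the 2 knockout libraries here. Without it the log2 fold changes were 0.12, 0.23, -0.38 and -0.18 in the same order.

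In injured neurites no glycolytic gene passed the adjusted threshold, where 0.261% of tested genes did. Hk1 and Pfkm had an unadjusted p under 0.05, against 10.5% of tested genes, and they were also the genes whose groups did not overlap, 2 of 10 against 21.9% of tested genes. Pfkm had 43.2 and 39.8 in knockout injured libraries, against 68.1, 54.7 and 66.3 in wild-type injured libraries, so both knockout libraries were below all wild-type ones. Its log2 fold change was -0.59 ± 0.25, a fold of 0.666 with an interval of 0.458 to 0.969 (limma adjusted p = 0.436). Hk1, with the values given above, was 0.77 ± 0.33 higher on the log2 scale (fold interval 1.04 to 2.78, adjusted p = 0.436), and 0.46 higher without wild-type injured replicate 3. Without the library labelled wild-type injured replicate 1 the log2 fold changes were -0.53 for Pfkm and 1.05 for Hk1. The wild-type injured libraries are shared by this comparison and that of injury in wild type. The nuclear transcript Malat1 fell in this comparison (log2 fold change -1.79, limma adjusted p = 0.0200). A list of 8 nuclear-retained transcripts, Malat1 among them, summed to 1835 to 2985 in knockout injured and 6112 to 7338 in wild-type injured libraries. Within that list 3 estimates were above 0, against 45.7% of all tested genes, the median log2 fold change was -0.37, and Malat1 alone passed. The part of these transcripts in the result was not tested.

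Of the 3 genes with a cytoplasmic polyadenylation element, Pfkp had 42.6 and 47.8 in knockout injured and 39.8 and 49.1 in knockout naive libraries, against 54.3, 60.8 and 42.8 in wild-type injured and 50.2, 54.1 and 63.3 in wild-type naive libraries. Ldha differed between genotypes by 0.08 ± 0.19 in injured neurites and Hk2 by 0.66 ± 1.06, neither past the threshold. The Pfkp difference in injured neurites was -0.20 ± 0.26, with a fold interval of 0.591 to 1.28. RNA levels were measured here, and poly(A) tail length and protein were not.

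Several steps have more than 1 isozyme, and the share of each in its family was compared on the same per-length scale. Hk1 made up 95.2% ± 6.97 (SD, n = 10) of hexokinase signal, with a low of 77.4% in wild-type injured replicate 1. Phosphofructokinase was divided between Pfkm at 45.1%, Pfkp at 41.5% and Pfkl at 13.4%. Aldoa held 64.9% ± 5.08 of the aldolase signal beside Aldoc, the form typical of astrocytes and some neurons. Ldha held 64.0% ± 4.41 of the lactate dehydrogenase signal beside Ldhb, the form that is common in heart and brain.

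Injury moved none of these shares past an exact two-sided permutation test with labels permuted within genotype, whose smallest possible p over 120 arrangements is 0.0167. With p-values adjusted over 4 shares, a share that alone reached that p could not have passed 0.05. The Aldoa share was 62.4% ± 5.66 (n = 3) in wild-type injured and 70.1% ± 3.32 (n = 3) in wild-type naive libraries. It was 59.9% and 63.3% in the knockout injured and 66.9% and 61.0% in the knockout naive libraries. The mean difference was -5.02 percentage points (exact permutation p = 0.0667, adjusted over 4 shares 0.233). The Ldha share was 66.4% ± 7.86 in wild-type injured and 62.2% ± 0.790 in wild-type naive libraries, a difference of 4.24 points over both genotypes (exact permutation p = 0.117, adjusted 0.233). The Hk1 share differed by -4.96 points (exact permutation p = 0.233, adjusted 0.311) and the Pfkp share by 0.73 points (exact permutation p = 0.833, adjusted 0.833).

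**Figure D3:**
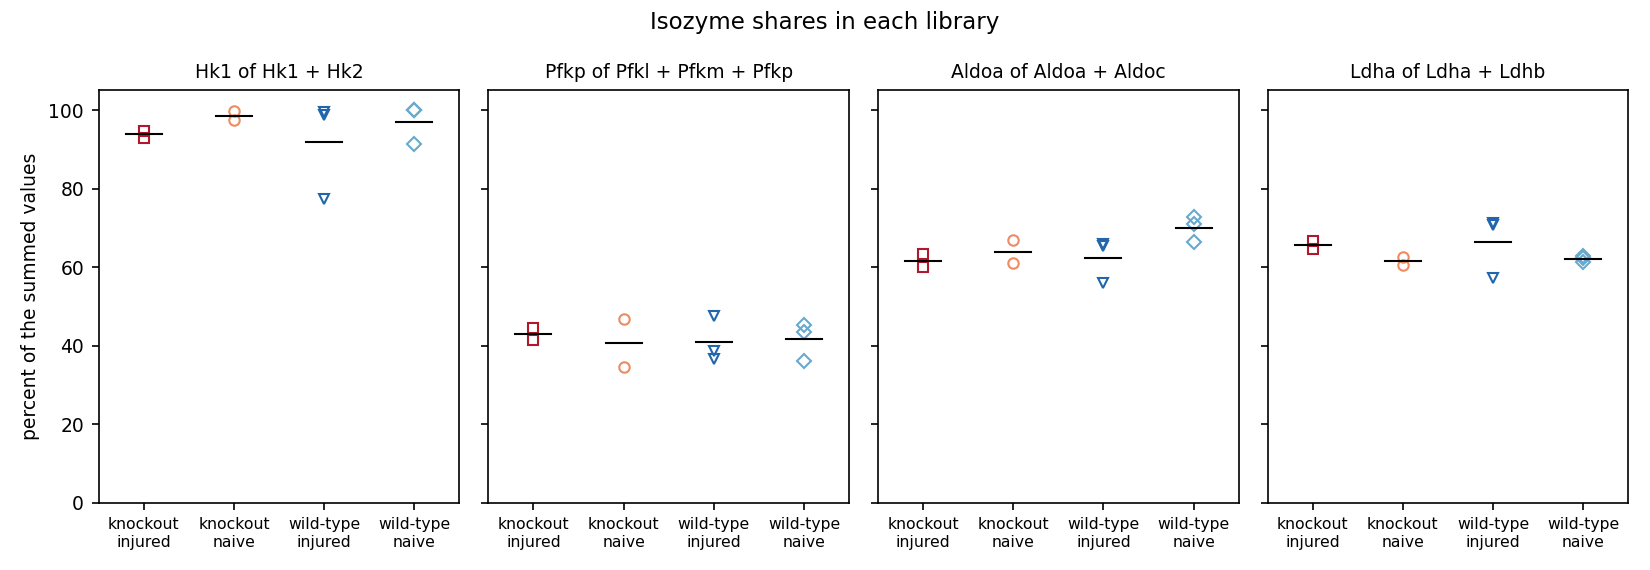
Share of Hk1, Pfkp, Aldoa and Ldha in the summed value of their isozymes, in percent, one open symbol per library with a bar at the group mean. Hk1 is at 77.4% or above and the mean Aldoa share is highest in wild-type naive libraries, which range from 66.4% to 72.9%, with knockout naive replicate 1 at 66.9%.

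Near-identical copies bear on how far some of these values can be trusted. At 95% identity the annotation held 85 such copies of the 10 genes, of which 78 belong to Gapdh, 4 to Pgk1, 2 to Ldha and 1 to Pkm. The hexokinases, phosphofructokinases and Aldoa had none. Of the copies 77 were among the measured rows, 10 of them at 0 in every library, and 7 had a mean value of at least 1, all of them copies of Gapdh (Gm7336, Gm12671, Gm10359, Gm3200, Gm3272, Gm12070 and Gm3839). Gm3839 is annotated as protein coding and the others as processed pseudogenes. Gm7336, Gm12671 and Gm10359 carried identical values in every library, from 65.7 to 127. RSEM, which the submitters' processing notes name, divides reads that match several transcripts among them. The copies held 13.1% to 21.5% of the Gapdh family's signal.

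Summing Gapdh with its copies left the injury difference in wild type at 0.36 ± 0.15 (limma adjusted p = 0.294) and that in the knockout at 0.28 ± 0.18. These sums were 1962, 1631 and 2311 in wild-type injured libraries, against 1470, 1462 and 1624 in wild-type naive libraries. The lowest injured and highest naive sums again lay only a few units apart.

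A copy outside the 10 genes separated the genotypes completely. Eno1 encodes enolase, the step before Pkm, and Eno1b is a gene on chromosome 18 whose transcript is 99.5% identical to it. Eno1b had 207 and 112 in knockout injured libraries and 213 and 87.3 in knockout naive libraries. It was listed at 0 in every wild-type injured library and in 2 of the 3 wild-type naive libraries, the third having 0.059. It passed in both genotype comparisons (limma adjusted p = 1.59e-05 in injured and 1.89e-05 in naive neurites), and the library labelled knockout naive replicate 1 went with its label here. The pseudogene Gm4735 followed the same pattern, with 19.5 to 35.1 in knockout libraries and at most 0.111 in wild-type libraries.

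Eno1 itself had 299 and 365 in knockout injured libraries, against 502, 504 and 750 in wild-type injured libraries, a log2 fold change of -0.80 ± 0.20 (adjusted p = 0.175). Summed with its copies it had 541 and 496 in knockout injured libraries, against 502, 505 and 750 in wild-type injured libraries, and the log2 fold change was -0.15 ± 0.20 (adjusted p = 0.816). In naive neurites the difference was -0.45 ± 0.20 for Eno1 alone and 0.20 ± 0.20 for the sum. Copies took 26.5% to 44.7% of the Eno1 family's signal in knockout libraries and at most 0.0957% in wild-type libraries. The difference of Eno1 between genotypes was thus within its SE once the copies were counted with it.

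**Figure D4:**
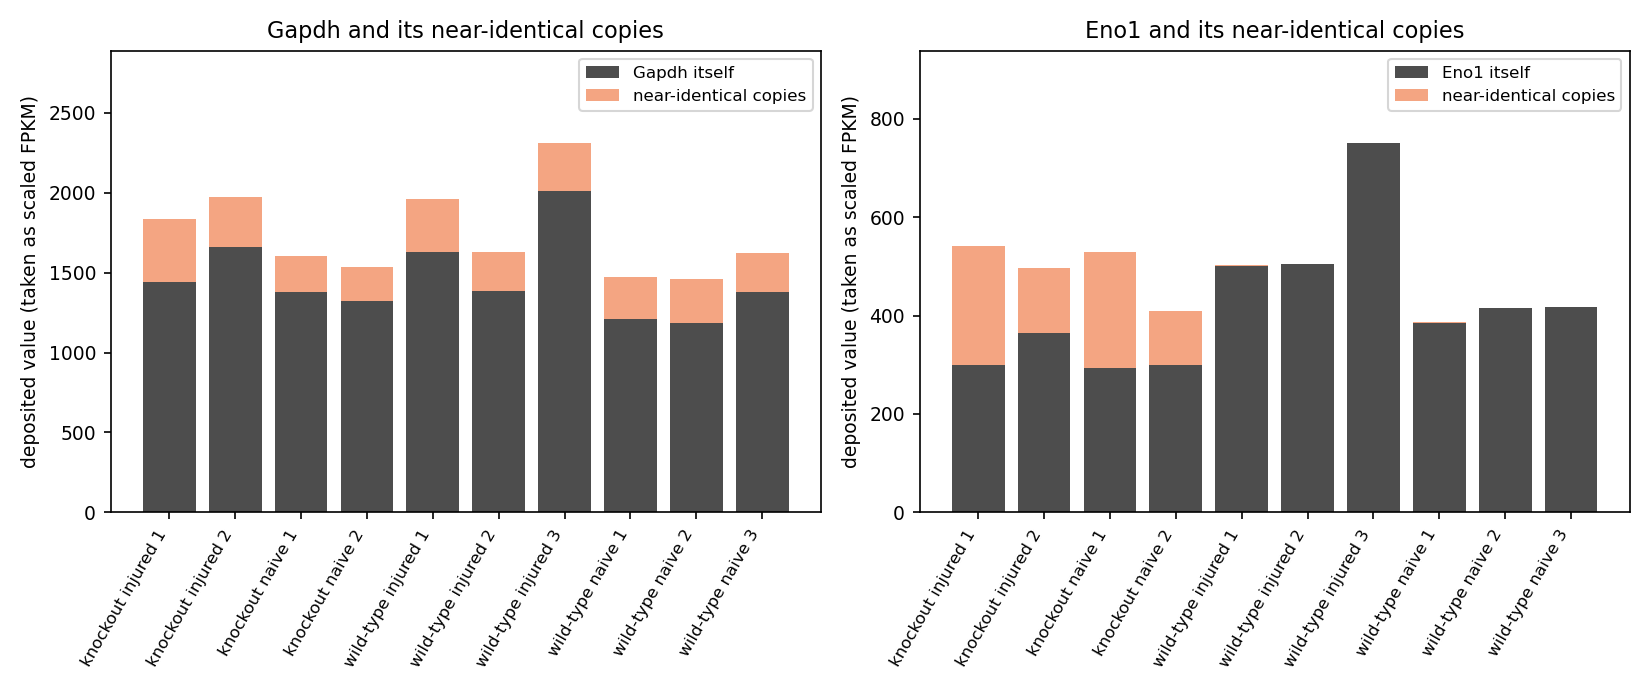
Deposited value of Gapdh (left) and Eno1 (right) in each library, with the summed value of their near-identical copies stacked on top. Copies hold 13.1% to 21.5% of the Gapdh family in all libraries, but of the Eno1 family they hold 26.5% to 44.7% in knockout libraries and at most 0.0957% in wild-type libraries.

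Overlap with neighbouring genes touched other members. Pkm shares 15.3% of its exonic bases with Gm49759, on the same strand, which is not among the rows analysed here. Pfkm shares 10.8% with Gm26513 on the same strand, which averaged 0.138, and Senp1 on the opposite strand, with 341 of the shared bases in Gm26513 and 18 in Senp1. Pfkp shares 5.58% with Pitrm1 on the opposite strand, which averaged 13.3, and the libraries do not keep strand. Hk1, Gapdh and Aldoa share less than 2% each, and Hk2, Pfkl, Pgk1 and Ldha share none.

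The rest of the pathway was read from a list of 26 further glycolytic genes, of which 19 were tested. In wild type none passed for injury, where 0.948% of tested genes did, and the lowest limma adjusted p was that of Aldoc at 0.0945. Aldoc had 250, 241 and 474 in wild-type injured libraries, against 161, 138 and 182 in wild-type naive libraries, so all injured libraries were above all naive ones (log2 fold change 0.94 ± 0.24). Eno1 (0.50 ± 0.18), Gpi1, the isomerase after hexokinase (0.52 ± 0.22), and Pfkfb3, which makes the activator of phosphofructokinase (0.82 ± 0.35), also had positive estimates, while Eno2, the neuronal enolase, had -0.64 ± 0.28 and Eno3, the muscle enolase, -1.71 ± 0.73. Tpi1 and Pgam1 had 0.37 ± 0.18 and 0.16 ± 0.16. In the knockout none of the 19 passed for injury, where 0.0573% of tested genes did. Across the genotype comparisons Eno1b was the only list member that passed, against 0.146% of tested genes in naive and 0.261% in injured neurites.

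Among 9 tested transporters of glucose and lactate none passed in any comparison, where 0% to 0.948% of tested genes did. Slc16a1, a lactate carrier, had 15.1, 10.8 and 33.4 in wild-type injured libraries, against 2.72, 0.856 and 6.64 in wild-type naive libraries (log2 fold change 2.32 ± 0.68, limma adjusted p = 0.159). All wild-type injured libraries were above all wild-type naive ones. In the knockout Slc16a1 had 3.41 and 20.5 in injured libraries, against 8.84 and 9.90 in naive libraries (log2 fold change -0.09 ± 0.83), and the interaction was -2.41 ± 1.07 (limma unadjusted p = 0.0432, adjusted p = 0.799). Of the 9 transporters 6 had positive estimates for injury in wild type (median 0.35) and 1 in the knockout (median -0.20). Over all tested genes 50.6% were positive for injury in wild type (median 0.01) and 42.8% in the knockout (median -0.09). For injury in wild type the glucose carriers Slc2a1 and Slc2a3 had 0.63 ± 0.39 and 0.35 ± 0.35.

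The promoters of the 10 genes were searched for the HIF motif in the RefSeq windows of 300 nt around annotated starts (GRCm38.p6), as ACGTG or GCGTG on either strand. All 10 genes matched the table, and 14 of their 18 windows held the motif (77.8%), against 43.8% of 32851 windows of all genes. With ACGTG alone it was 10 of 18 windows (55.6%), against 19.6% of all windows. Both motifs contain the dinucleotide CG, and the windows compared were not matched for its frequency, whose part was not tested. Counted per gene, all 10 held either motif in some window and 8 held ACGTG, against 46.7% and 21.8% of 27025 genes, but the 10 genes had 1.80 windows each and all genes 1.22. Windows of Aldoa and of Pfkm overlap, so the 36 motifs counted lie at 34 distinct sites. The window of Ldha at chr7:46845554-46845853 on the plus strand held 7, 5 of them ACGTG, and 0.301% of all windows hold at least as many. The palindrome CACGTG counts as a motif on both strands. The window is shown because it is the densest of the set, with motifs on either strand in capitals:
Ldha promoter: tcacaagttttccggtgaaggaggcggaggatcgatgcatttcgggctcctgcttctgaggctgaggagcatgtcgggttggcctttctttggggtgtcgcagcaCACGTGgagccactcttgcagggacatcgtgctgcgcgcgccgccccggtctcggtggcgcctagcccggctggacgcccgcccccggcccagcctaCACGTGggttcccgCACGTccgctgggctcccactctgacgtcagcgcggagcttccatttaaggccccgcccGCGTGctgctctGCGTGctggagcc
Other HIF-1 targets were at hand as a list of 17 tested genes. None of them passed in any comparison, where 0% to 0.948% of tested genes did. Among 8 tested regulators of this response 1 passed for injury in wild type, against 0.948% of tested genes. This was Myc (log2 fold change 1.11 ± 0.22, limma adjusted p = 0.0353). It had 89.4, 66.2 and 94.3 in wild-type injured and 38.6, 38.3 and 36.0 in wild-type naive libraries. Only 3 of the 8 had positive estimates (median -0.21), and Hif1a had -0.005 ± 0.32. For injury in the knockout Myc had 0.42 ± 0.27 (limma adjusted p = 0.943).

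The mean centred log2 profile of the 10 genes over the 10 libraries was compared with that of 7358 named genes at or above the median level. Elac2 was the most like it, with a root mean square difference of 0.13 on the log2 scale. Csnk1g3, G3bp1, Nudt4 and Zc3hc1 followed with 0.14 to 0.15, against a median of 0.49 over all candidates. This profile is pulled by the 2 members with the widest spread, Hk2 and Pfkl, whose own distances from it were 1.05 and 0.71, whereas Ldha and Pkm lay at 0.17 and 0.22.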

How the data were processed

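Per the labels' protocols, unstranded Smart-seq2 libraries were made from 1 ng of neurite RNA with oligo(dT) priming and 14 PCR cycles. Per the submitters' processing notes, reads were aligned with STAR 2.4.2a and quantified with RSEM 1.2.21 on mm10. The values the authors deposited were taken as FPKM divided by a factor per library (0.811 to 1.11). The sources used here do not state this, and it is an assumption. At least 99.9956% of the values lie within 0.001 of a whole multiple of a fixed step. The library totals are 726420 to 1171842, and 805982 to 950911 before the assumed division. TPM that was divided likewise and had rows left out could also give such totals. The deposited rows hold 0 genes of the mitochondrial chromosome. The depth estimate uses those steps and holds only for FPKM.

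Of 45195 gene IDs 44548 matched GENCODE M21, which gave names, coordinates and 3' UTRs. From the values, limma 3.58.1 (R 4.3.3) was fitted to log2(value + 1), with eBayes, a mean-variance trend and 4 group means in 1 fit of 10 libraries, over the 15712 genes with at least 1 in at least 2 libraries. Every adjusted p of a gene is from limma with Benjamini-Hochberg adjustment over all of them (threshold 0.05, 6 residual and 6.80 prior degrees of freedom). Fold changes are on the log2(value + 1) scale, which understates those of low genes. Intervals are 95%. A near-identical copy is a transcript that blastn 2.17.0 aligned on the same strand at 95% identity over 150 nt or more and over 50% or more of the shorter of both. The glycolytic genes and all gene lists were chosen with earlier results of these data known. Other genes named are the 4 with the smallest p of the glycolysis list, fixed family members, list members that passed (at most 2 per list), near-identical copies with a mean of at least 1 and the 5 most like profiles. Eno1b and Gm4735 were described in full after their values were seen. The fit was also run on simulated data with independent noise and larger changes than most of those of the 10 genes, so that run does not bear on these results. Alternatives were other pseudocounts (0.1 and 5), filters (none, at least 5), scalings, no trend, only the groups compared, a replicate block, each library left out, and copies summed with their gene.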

Additional observations from a re-analysis of the deposited data

How the results depend on the processing

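The alternatives gave 1214 values for the 10 glycolytic genes over the 6 comparisons. None passed the threshold, and the lowest limma adjusted p was 0.0975. Direction held in 1156, and the sign of an uncalled value changed in 58. For injury in wild type the log2 fold change ranged from -1.18 to -0.58 for Hk1, 0.25 to 0.52 for Aldoa, 0.25 to 0.52 for Gapdh and 0.15 to 0.37 for Pkm. The counts of called genes over the whole table were less stable, and the cause was not tested. For injury in wild type 149 became 25 with no filter on low values, 77 with no trend, 17 with only the groups compared (90 where the filter was also applied to those libraries alone, an alternative chosen after seeing the data) and 35 to 311 with a library left out (35 without wild-type naive replicate 1, 311 without wild-type injured replicate 2). For injury in the knockout 9 became 1 with a pseudocount of 0.1, 33 with no filter, 4 under quantile normalization, 1 with no trend, 0 with only the groups compared by either filter and 0 to 20 with a library left out. For injury averaged over genotypes 89 became 52 with no filter, 53 with no trend and 32 to 160 with a library left out. For genotype in naive neurites 23 became 52 with no filter, 15 with only the groups compared (23 with the filter on those libraries) and 17 to 27 with a library left out. For genotype in injured neurites 41 became 15 with only the groups compared (32 with the filter on those libraries) and 24 to 57 with a library left out. For the interaction 0 became 13 with no filter, 3 with no trend and 0 to 2 with a library left out. The Pfkp share difference ranged from -2.27 to 3.74 points with a library left out, that of Hk1 from -6.87 to -1.34, Aldoa from -6.51 to -3.38 and Ldha from 3.05 to 6.50. Deviations from group means over all tested genes correlated at -0.0484 to 0.0409 between libraries with the same replicate number. Between libraries with different numbers they correlated at -0.0508 to 0.0508. In the knockout groups of 2 the deviations are mirror images, so these ranges are in part fixed by the group size. They cannot show whether the numbers pair the libraries. With only wild-type libraries as partners, 4 of the 6 wild-type libraries correlated best with their own number. What the numbers mean is not given, so they were not used as pairs in the main fit. Single genes did go by number. Copies held 44.7% and 44.6% of the Eno1 family in knockout injured and naive replicate 1, against 26.5% and 26.6% in replicate 2. Hk2 was highest in replicate 1 of every group. With a replicate block the counts were 146, 5, 102, 20, 30 and 0 in the order above. Hk2 was the lowest and most variable of the 10 genes, and with no counts used no counting error can be given for it.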

Other observations

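Pathways that branch from glycolysis were measured in the same fit. Of all tested genes 0% to 0.948% passed in each of the 6 comparisons, so lists this short would seldom hold a gene that passed. Of 18 tested genes of the citric acid cycle none passed in any of the 6 comparisons, with a median log2 fold change of -0.03 for injury in wild type and -0.02 for injury in the knockout. None of 14 genes for the entry of pyruvate into mitochondria passed, with medians of -0.28 for injury in wild type and -0.13 for injury in the knockout, and none of 7 genes of the pentose phosphate branch, with medians of 0.10 for injury in wild type and 0.01 for injury in the knockout. The 11 tested genes of gluconeogenesis and glycogen had positive estimates in 10 for injury in wild type and in 10 for injury in the knockout. Over all tested genes 50.6% and 42.8% were positive in the same order. The medians of the 11 genes were 0.26 and 0.28, against 0.01 and -0.09 over all tested genes, and none passed. Of the 5 genes of the serine branch, which leaves glycolysis at the product of phosphoglycerate kinase, none passed, with medians of 0.42 in wild type and 0.03 in the knockout.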
